A study of Mus musculus with 12 samples.

Results

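The 6 genes for Fc receptors and their shared signalling chain were followed through the bone marrow myeloid cells of the study: Fcgr1, Fcgr2b, Fcgr3, Fcgr4, Fcer1g and Fcgrt. They were chosen by symbol, and each of the 6 matched 1 of the 56953 genes in the deposited tables. Polyadenylated RNA was sequenced from 12 libraries in 4 groups of 3 replicates, sorted from the bone marrow of 8-week-old female C57BL/6J mice. The mice carried Rank cre/+;R26.eYFP fl/+, a reporter in which Cre expressed from the Rank locus permanently switches on the fluorescent protein eYFP in embryonic macrophages, while cells made by adult hematopoietic stem cells remain unlabelled. Macrophages were sorted by the label into an eYFP+ group of embryonic origin and an eYFP- group made in the adult. Monocytes were sorted into Ly6Chi and Ly6Clo cells, and no treatment is given for any group. Macrophages were gated as Gr1 low, F4/80+ and CD206+VCAM1+ cells. Whether libraries with the same replicate number, or macrophages and monocytes, came from the same mice is not stated, so p-values measure the spread between these samples, which may be partly technical. Antibody to CD16/32, which binds the products of Fcgr3 and Fcgr2b, was used to block cells before sorting.

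Receptors for the Fc part of IgG let myeloid cells recognise targets that carry antibody. Fcgr1, Fcgr3 and Fcgr4 encode activating receptors, which signal through a common chain encoded by Fcer1g, whereas Fcgr2b encodes the inhibitory receptor that sets a threshold for activation. Fcgrt encodes the heavy chain of the neonatal Fc receptor, which pairs with beta-2-microglobulin inside the cell and returns IgG and albumin from endosomes to the outside. In mice, high Fcgr4 marks the patrolling Ly6Clo type of monocyte, and Fcgr1 is widely used as a marker of macrophages.

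In the RefSeq gene order, Fcgr2b, Fcgr4 and Fcgr3 are direct neighbours on chromosome 1, and Fcer1g follows after 7 other protein-coding genes. Fcgr1 lies on chromosome 3 and Fcgrt on chromosome 7. The signalling difference between the receptors is carried by short stretches of coding sequence, shown here because the balance of activating and inhibitory transcripts is examined below. The activating stretch (ITAM) lies in codons 65 to 79 of Fcer1g and the inhibitory stretch (ITIM) in codons 317 to 322 of Fcgr2b, both read from GENCODE M21 transcripts, with the codons of the tyrosines that become phosphorylated in capitals.
Fcer1g: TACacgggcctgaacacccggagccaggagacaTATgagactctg
Fcgr2b: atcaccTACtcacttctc
The pattern of paired tyrosine codons used to find the first stretch occurred in 2.85% of 21584 protein-coding genes. The pattern used for the second occurred in 53.7%, so a match to the second is common. Among the members it also matched 3 times in Fcgr1 and 1 time each in Fcgr4, Fcer1g and Fcgrt. A match alone therefore did not mark the inhibitory receptor.

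Fcgr2b and Fcgr3 also share part of the sequence for their antibody-binding part, and this bears on how reads were counted. The longest identical run of coding sequence was 129 bases, and 17.1% of all 50-base windows of Fcgr2b, or 22.1% of those of Fcgr3, were found unchanged in the other gene. Coding bases 263 to 421 of Fcgr2b and 248 to 406 of Fcgr3 are shown, with the 2 differing bases in capitals.
Fcgr2b: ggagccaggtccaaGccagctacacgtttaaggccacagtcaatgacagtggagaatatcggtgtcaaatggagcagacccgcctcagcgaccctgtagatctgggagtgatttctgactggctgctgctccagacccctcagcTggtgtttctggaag
Fcgr3: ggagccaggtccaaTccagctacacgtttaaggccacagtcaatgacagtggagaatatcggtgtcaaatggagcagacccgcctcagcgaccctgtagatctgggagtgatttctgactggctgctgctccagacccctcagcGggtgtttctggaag
The authors kept only unambiguous read pairs, so pairs that lie wholly in this stretch could be lost from both genes, and their levels carry that uncertainty. No other pair of the 4 IgG receptor genes shared a run of more than 14 bases.

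Libraries held 26390927 to 48618187 counts. Marker genes of the sorted cells mostly fitted the labels. A list of 10 macrophage genes, among them Adgre1 and Vcam1, summed to 23510 to 36638 TPM in macrophages and to 709 to 2951 TPM in monocytes. The products of Adgre1 and Vcam1 were used to gate the macrophages, so these genes are no independent check. Csf1r, also on the list, had means of 1055 and 981 TPM in eYFP+ and eYFP- macrophages. Its means were 1116 and 1248 TPM in Ly6Chi and Ly6Clo monocytes. TPM is a level per transcript, scaled to the library and corrected for gene length. In eYFP+ replicate 1 and Ly6Clo replicate 2, transcripts rich in G and C were lower than in the other libraries of their groups, by a median log2 difference of -0.73 and -1.24 over 1291 such genes. Members deviated in these libraries as well, so results that depend on them are given without them. Genes were tested with DESeq2 in 1 fit over all libraries, and a gene was called when its adjusted p was under 0.05. By this test, 9 of the 10 macrophage genes were called higher and 0 lower in macrophages than in monocytes. A list of 10 monocyte genes had 8 tested, with 6 called lower and 1 higher in macrophages.

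All 6 genes were detected in all 12 libraries. Fcer1g was by far the most abundant, with 4240 to 7635 TPM, which placed it between rank 9 and rank 23 among all genes of a library. Fcgr3 ranked between 41 and 168. The remaining members ranged more widely between groups. As the plot of levels by library shows, Fcgrt ran from 118 TPM in a Ly6Chi library to 2926 TPM in an eYFP+ library, and Fcgr4 from 45.3 TPM in a Ly6Chi library to 1749 TPM in a Ly6Clo library.

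**Figure D1:**
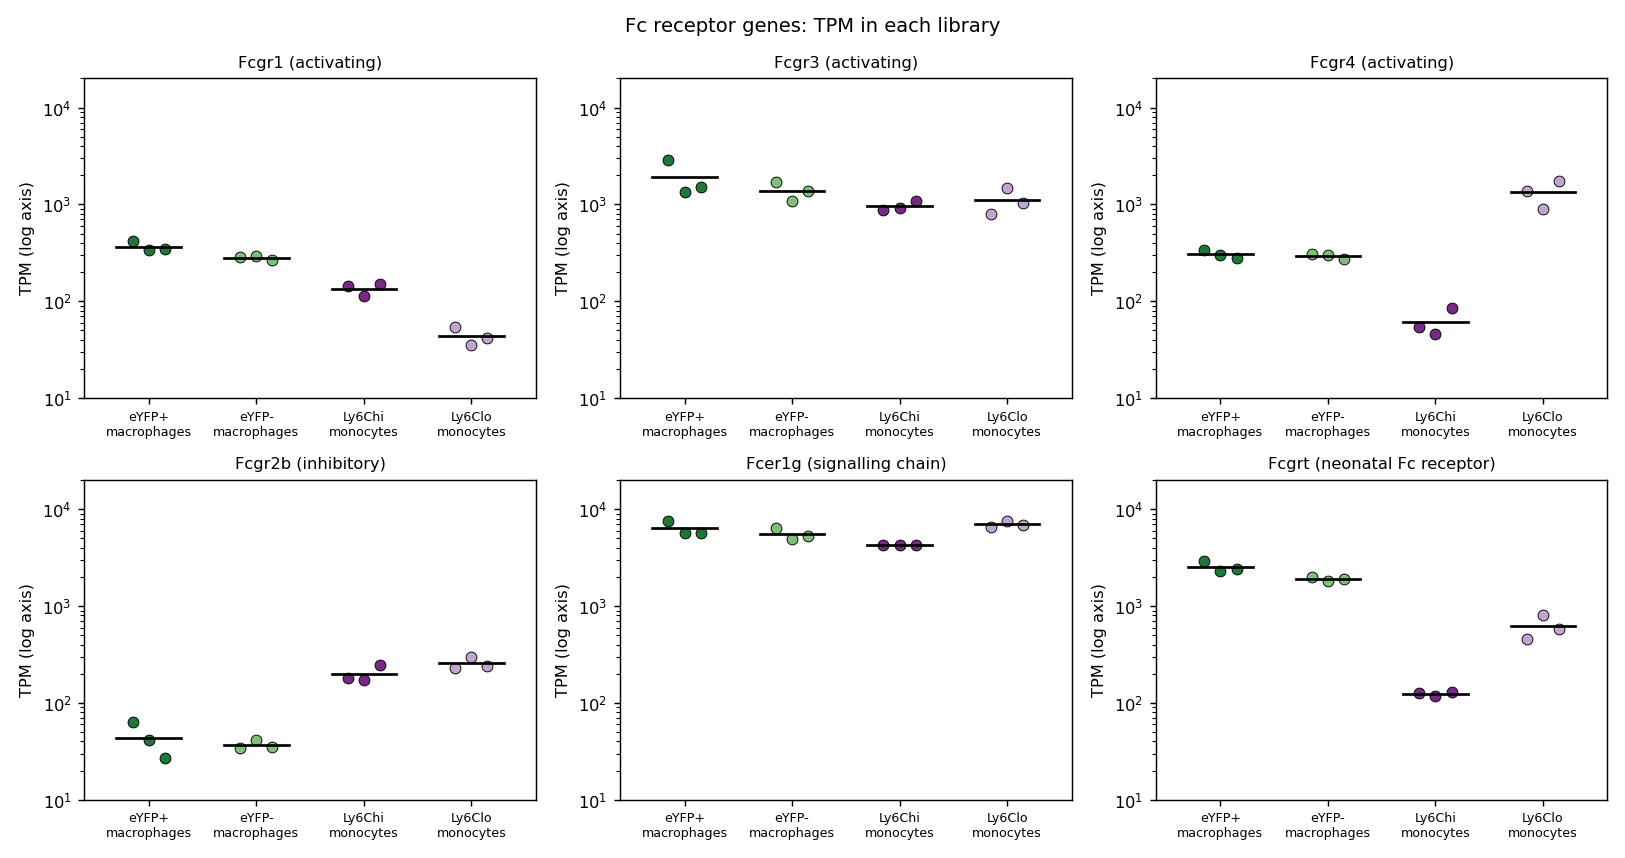
TPM (log axis) of the 6 genes in each of the 12 libraries, with points for replicates and lines for group means (n = 3). Fcgr1 and Fcgrt were higher in macrophages, Fcgr2b was higher in monocytes, Fcgr4 was highest in Ly6Clo and lowest in Ly6Chi monocytes, and Fcgr3 and Fcer1g varied least.

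Fcgr1 encodes the high-affinity IgG receptor CD64. Its level was 415, 338 and 343 TPM in eYFP+ macrophages, 287, 291 and 269 TPM in eYFP- macrophages, 143, 112 and 151 TPM in Ly6Chi monocytes and 53.9, 35.4 and 41.6 TPM in Ly6Clo monocytes. The ranges of the 4 groups did not overlap, and the order was eYFP+ macrophages, eYFP- macrophages, Ly6Chi monocytes and Ly6Clo monocytes. Macrophages and monocytes differed by a log2 fold change of 1.98 ± 0.18 (SE, adjusted p = 3.72e-25), a 3.94-fold higher level in macrophages. Ly6Chi exceeded Ly6Clo monocytes by 1.65 ± 0.26 (adjusted p = 3.69e-08). The first and the second of this order, the macrophage groups, did not differ beyond their spread in the test.

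Fcgr3 encodes a low-affinity activating receptor and was the most abundant IgG receptor gene in 10 of 12 libraries. Its level was 2897, 1358 and 1530 TPM in eYFP+ macrophages and 1698, 1096 and 1372 TPM in eYFP- macrophages. In Ly6Chi monocytes it was 865, 923 and 1095 TPM, and in Ly6Clo monocytes 789, 1470 and 1035 TPM. Each eYFP+ library lay above each Ly6Chi library. eYFP- macrophages and Ly6Chi monocytes were separated by less than 1 TPM and overlapped in normalized counts, the other groups overlapped on both scales, and no contrast was called. The difference between macrophages and monocytes was 0.59 ± 0.31 (log2, adjusted p = 0.125). It was 0.70 with an adjusted p of 0.0330 without Ly6Clo replicate 2, and eYFP+ macrophages exceeded Ly6Chi monocytes by 0.91 (adjusted p = 0.0441) without that library, against 0.96 ± 0.44 (adjusted p = 0.0966) with it. Without eYFP+ replicate 1, where Fcgr3 was highest, both differences were smaller. The first was then 0.33 (adjusted p = 0.364) and the second 0.43 (adjusted p = 0.511).

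Fcgr4 encodes an activating receptor found in rodents that binds IgG2 subclasses and also IgE. Its level in Ly6Clo monocytes was 1360, 902 and 1749 TPM, while Ly6Chi monocytes had 54.5, 45.3 and 84.6 TPM. In between lay the macrophages, with 339, 302 and 282 TPM in the eYFP+ and 307, 302 and 274 TPM in the eYFP- group. No monocyte library overlapped with the macrophages, and the monocyte groups lay on opposite sides of them. Ly6Clo exceeded Ly6Chi monocytes 21.6-fold (log2 fold change of Ly6Chi minus Ly6Clo -4.43 ± 0.34, adjusted p = 6.16e-35). eYFP+ macrophages were higher than Ly6Chi monocytes by 2.25 ± 0.34 (adjusted p = 1.22e-09) and lower than Ly6Clo monocytes, with a log2 difference of -2.18 ± 0.34 (adjusted p = 3.86e-09). For eYFP- macrophages these log2 differences were 2.14 ± 0.34 and -2.29 ± 0.34. Averaged over both monocyte groups on the log scale, the difference was -0.02 ± 0.24 (adjusted p = 0.963), with a 95% interval from -0.50 to 0.46, so the pooled contrast did not describe either monocyte group.

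Fcgr2b, the inhibitory receptor gene, ran the other way. Macrophages had 63.4, 41.0 and 26.9 TPM in the eYFP+ group and 34.3, 41.8 and 34.9 TPM in the eYFP- group, whereas Ly6Chi monocytes had 180, 173 and 248 TPM and Ly6Clo monocytes 231, 301 and 241 TPM. Every monocyte library lay above every macrophage library. The log2 fold change of macrophages minus monocytes was -2.59 ± 0.27 (adjusted p = 3.37e-20), a 6.00-fold lower level in macrophages. The monocyte groups overlapped, with a log2 difference of -0.36 ± 0.38 (adjusted p = 0.653) and a 95% interval from -1.11 to 0.38.

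Fcer1g, the chain that the activating receptors need for surface expression and signalling, was 7635, 5724 and 5738 TPM in eYFP+ macrophages and 6401, 4879 and 5330 TPM in eYFP- macrophages. Ly6Chi monocytes had 4240, 4323 and 4291 TPM and Ly6Clo monocytes 6630, 7489 and 6944 TPM. Macrophages and monocytes differed by 0.03 ± 0.20 (log2, adjusted p = 0.934), with a 95% interval from -0.36 to 0.42. Both macrophage groups overlapped each other, and each eYFP+ library lay above each Ly6Chi library. In TPM the eYFP- libraries lay above all Ly6Chi and below all Ly6Clo libraries, but in normalized counts they overlapped with both. All Ly6Clo values lay above all Ly6Chi values, but the log2 difference of -0.71 ± 0.28 was not called (adjusted p = 0.101). Under the alternative settings the adjusted p of this difference ran from 0.0239 to 0.285, and it fell to 0.0382 when eYFP+ replicate 1, which is no part of the comparison, was left out of the fit.

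Fcgrt was 2926, 2317 and 2433 TPM in eYFP+ macrophages and 1987, 1807 and 1894 TPM in eYFP- macrophages. In monocytes it was 462, 812 and 580 TPM in the Ly6Clo and 128, 118 and 129 TPM in the Ly6Chi group. No groups overlapped. The level was 7.40-fold higher in macrophages than in monocytes (log2 fold change 2.89 ± 0.22, adjusted p = 2.37e-37), and between the most distant groups, eYFP+ macrophages and Ly6Chi monocytes, it differed 19.5-fold (4.28 ± 0.31, adjusted p = 1.27e-40). Ly6Clo exceeded Ly6Chi monocytes 4.99-fold (-2.32 ± 0.31 for Ly6Chi minus Ly6Clo, adjusted p = 2.02e-11). The highest Ly6Clo value came from replicate 2, and the contrast was called without that library too. The partner gene B2m varied less, with mean levels of 14090, 12321, 10288 and 17378 TPM in eYFP+ macrophages, eYFP- macrophages, Ly6Chi and Ly6Clo monocytes. The Fcgrt level per B2m level was 0.182 ± 0.0053 and 0.154 ± 0.0062 (SD, n = 3) in eYFP+ and eYFP- macrophages, 0.0363 ± 0.0137 in Ly6Clo and 0.0122 ± 0.0002 in Ly6Chi monocytes.

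Whether the developmental origin of macrophages changes these genes was asked by comparing eYFP+ with eYFP- macrophages. None of the 6 was called, by DESeq2 or by edgeR, and 0 had an unadjusted p under 0.05, in a comparison that called 2.04% of 21567 tested genes, with 0.153% higher and 1.88% lower in eYFP+ cells. All 6 log2 fold changes were positive, from 0.11 ± 0.34 for Fcgr4 to 0.52 ± 0.44 for Fcgr3. Fcgr1 (0.42 ± 0.26, adjusted p = 0.781) and Fcgrt (0.47 ± 0.31, adjusted p = 0.818) were higher in each eYFP+ than in each eYFP- library; 15.2% of tested genes had groups that did not overlap. The 95% intervals reached from -0.10 to 0.93 for Fcgr1 and from -0.14 to 1.08 for Fcgrt, so differences up to these bounds are not excluded. In eYFP+ replicate 1, Fcgr3 lay 1.23 and Fcgr2b 1.15 log2 units above the other eYFP+ libraries, and without it 4 of the 6 differences changed sign. Fcgr3 was then at -0.01, Fcgr2b at -0.15, Fcgr4 at -0.05 and Fcer1g at -0.01, while Fcgr1 fell to 0.23 and Fcgrt to 0.28.

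Between the monocyte groups 3 of the 6 genes were called: Fcgr1 was higher, and Fcgr4 and Fcgrt were lower, in Ly6Chi cells. That comparison called 8.62% of 21567 tested genes, 3.66% higher and 4.97% lower, and in 28.1% the groups did not overlap. Between macrophages and monocytes 3 of the 6 were called as well, Fcgr1 and Fcgrt higher and Fcgr2b lower in macrophages, where 35.4% of 22385 tested genes were called, 20.3% higher and 15% lower. Of the 24 tests of 1 macrophage group against 1 monocyte group, 16 were called: Fcgr1, Fcgr2b, Fcgr4 and Fcgrt in all 4 pairs, Fcgr3 and Fcer1g in none. These pairs share their libraries with each other and with the pooled contrast. The share of tested genes called was 24.5% for eYFP+ macrophages against Ly6Chi monocytes and 28% against Ly6Clo monocytes, and 27.4% and 26.3% for eYFP- macrophages. The plot of fold changes shows these differences with their intervals.

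**Figure D2:**
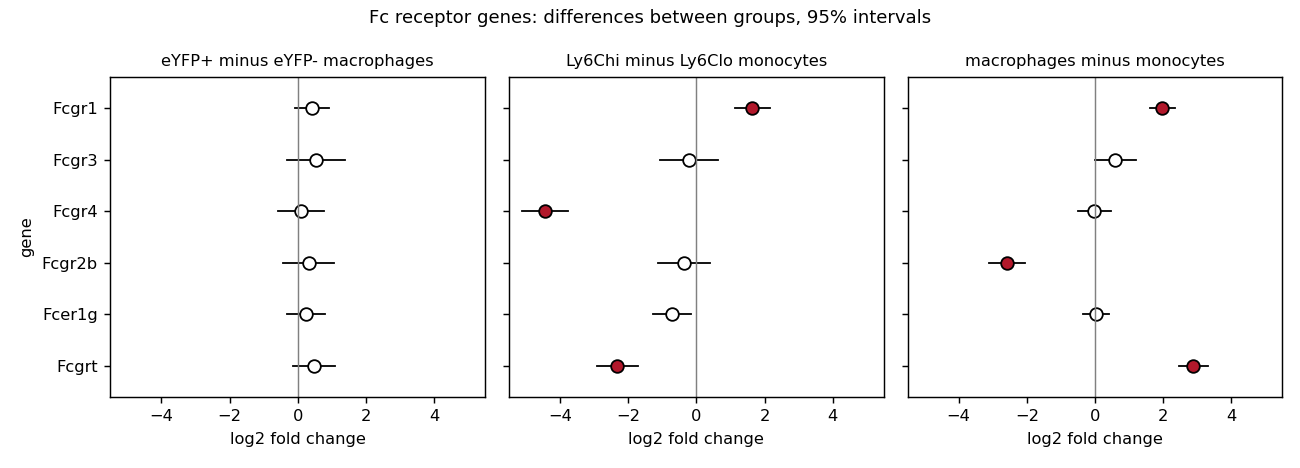
Log2 fold change of the 6 genes in 3 comparisons (n = 3 libraries per group), with 95% intervals as lines; filled points were called at an adjusted p under 0.05. No gene was called between the macrophage groups, 3 were called between the monocyte groups and 3 between macrophages and monocytes, and the value furthest from 0 is that of Fcgr4 between monocytes (-4.43).

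Markers of other cell types differed between the groups as well, and in bulk samples fewer cells of a type cannot be told apart from less RNA per cell. A list of 12 neutrophil genes, all detected in each group, summed to 121 to 211 TPM in eYFP+ macrophages, 209 to 2628 TPM in eYFP- macrophages, 6857 to 16954 TPM in Ly6Clo and 16120 to 24341 TPM in Ly6Chi monocytes. Its genes did not move together between the monocyte groups. Elane and Mpo were called higher in Ly6Chi cells, Mmp9 was called higher in Ly6Clo cells, as was Fcgr4, and 9 were not called. Also higher in Ly6Clo than in Ly6Chi monocytes were 6 of 10 dendritic cell genes and 5 of 8 eosinophil genes, while 2 dendritic cell genes were lower. A list of 10 erythroid genes summed to 8955 to 14881 TPM in eYFP+ macrophages, 22896 to 36565 TPM in eYFP- macrophages and 391 to 1432 TPM in monocytes. The list of 8 mast cell and basophil genes summed to 360 to 852 TPM in eYFP- macrophages and 2.84 to 12.2 TPM in eYFP+ macrophages. Called lower in eYFP+ than in eYFP- macrophages were 4 of 12 neutrophil genes, 4 of 10 dendritic cell genes, 3 of 10 erythroid genes, 3 of 8 tested monocyte genes and 3 of 7 tested mast cell and basophil genes, and 0 genes of these lists were called higher. Of these, edgeR called 1 monocyte gene and 0 of the other lists. In DESeq2 an unadjusted p under 0.05 was reached by 8 neutrophil, 4 dendritic cell, 9 erythroid, 4 monocyte, and 6 mast cell and basophil genes. Of the 10 macrophage genes, 6 were called lower in Ly6Chi than in Ly6Clo monocytes and 0 higher, with a median log2 fold change of -1.72, the direction of Fcgrt. Among them, Vcam1 had means of 15.7 and 62.3 TPM in Ly6Chi and Ly6Clo monocytes, and Slc40a1, the iron exporter gene, 13.2 and 42.9 TPM. Called higher in macrophages than in monocytes were 7 of 10 T and NK cell, 6 of 10 endothelial and stromal and 4 of 6 tested megakaryocyte genes, and 0 lower. In Ly6Chi against Ly6Clo monocytes, 2, 3 and 2 genes of these lists were lower and 0 higher. In eYFP+ against eYFP- macrophages, 1, 0 and 1 were lower and 0 higher, and edgeR called 0. The part of the cells marked by all these lists in the differences of the Fc receptor genes was not tested.

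The mixture of IgG receptor transcripts was examined as the share of each gene in the summed TPM of Fcgr1, Fcgr2b, Fcgr3 and Fcgr4. Fcgr3 made up 71.6% ± 5.84 (SD, n = 3) of the sum in eYFP+ macrophages, 68.9% ± 5.02 in eYFP- macrophages and 70.9% ± 2.39 in Ly6Chi monocytes, but 40.1% ± 12.3 in Ly6Clo monocytes. In the latter Fcgr4 took 48.7% ± 13.4, compared with 4.45% ± 0.87 in Ly6Chi monocytes. Ly6Clo replicate 2 differed from its group, with 54.3% Fcgr3 and 33.3% Fcgr4, yet remained above all other groups in its share of Fcgr4. Fcgr1 contributed 14.5% ± 2.92 and 14.3% ± 2.29 in eYFP+ and eYFP- macrophages, 9.99% ± 1.35 in Ly6Chi and 1.63% ± 0.51 in Ly6Clo monocytes. Fcgr2b contributed 1.65% ± 0.39 and 1.89% ± 0.48 in macrophages, and 14.7% ± 0.95 and 9.48% ± 1.63 in Ly6Chi and Ly6Clo monocytes.

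Activating transcripts (Fcgr1, Fcgr3 and Fcgr4) exceeded Fcgr2b transcripts in all groups, but to a different degree. Their TPM ratio was 57.6, 48.8 and 80.2 in eYFP+ macrophages and 66.9, 40.4 and 54.9 in eYFP- macrophages. It was 8.01 to 11.7 in Ly6Clo monocytes and 5.36 to 6.23 in Ly6Chi monocytes. All macrophage libraries were above all monocyte libraries, and the macrophage groups overlapped. The log2 ratio differed by 2.92 between macrophages and monocytes, and by 2.82 to 3.05 when single libraries were left out. The ratio combines Fcgr2b, which was lower in macrophages, with activating genes of which Fcgr1 alone was called higher. Its absolute size depends on the gene lengths behind TPM, as the lengths implied by the tables, relative to Fcer1g, were 5.26 for Fcgr2b, 3.84 for Fcgr1, 2.00 for Fcgr3 and 1.86 for Fcgr4. The ratio of Fcer1g to summed activating TPM was 3.23 to 4.003 in Ly6Chi monocytes, above every library of the other groups, which ranged from 2.092 to 3.11.

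**Figure D3:**
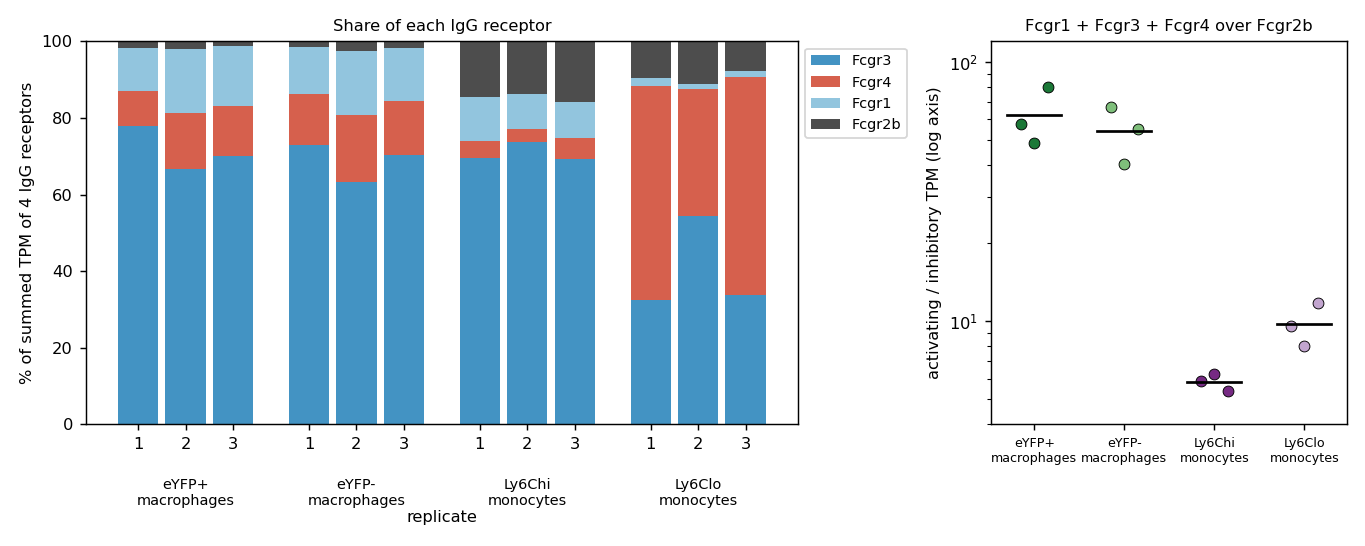
Left, share of each of 4 IgG receptor genes in their summed TPM (%) for each library; right, TPM of Fcgr1, Fcgr3 and Fcgr4 divided by TPM of Fcgr2b (log axis), points for libraries and lines for means (n = 3). Fcgr4 takes 33.3% to 57.1% in Ly6Clo monocytes, and the ratio is 40.4 or more in macrophages and 11.7 or less in monocytes.

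The sequence before the start of the genes was searched because Fcgr1 and Fcgr4 differed between the monocyte groups in opposite directions. RefSeq promoters (GRCm38.p6) were available for all 6 genes, and the 250 bases before the start were used. Shown are Fcgr4 (chr1:171018676-171018925, plus strand) and Fcgr1 (chr3:96293970-96294219, minus strand), with the letters GGAAGT, the core bound by the myeloid factor PU.1, or their reverse complement in capitals.
Fcgr4: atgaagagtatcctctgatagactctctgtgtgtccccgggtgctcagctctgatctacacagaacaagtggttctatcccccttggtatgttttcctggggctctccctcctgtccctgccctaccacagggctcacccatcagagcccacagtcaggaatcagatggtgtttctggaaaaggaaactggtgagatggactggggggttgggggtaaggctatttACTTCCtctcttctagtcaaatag
Fcgr1: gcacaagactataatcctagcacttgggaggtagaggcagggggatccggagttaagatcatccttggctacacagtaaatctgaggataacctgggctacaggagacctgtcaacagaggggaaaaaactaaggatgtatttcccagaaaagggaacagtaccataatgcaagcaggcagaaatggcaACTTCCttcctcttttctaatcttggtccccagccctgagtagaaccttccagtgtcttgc
These letters lay 24 bases before the start of Fcgr4, 61 before that of Fcgr1 and 31 before that of Fcgr2b, and they occur in 19.7% of 32851 promoters of this length. The STAT letters TTCNNNGAA were found in Fcgr1 (7.02% of promoters), the KLF letters CCACACCC in Fcgrt (3.20%) and the Maf letters TGCTGAC in Fcgr3 (3.81%). The letters TTGCGCAA and TTGCNNCA (C/EBP), AAAGGTCA (Nr4a) and CACGTG (Mitf family) were in none of the 6 windows and in 0.164%, 9.59%, 1.336% and 6.02% of all promoters. Both strands were searched, and no motifs of the search overlapped in a window of a member.

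The genes whose values over the 12 libraries were closest to each member were named by the root mean square difference of deposited variance-stabilised values after centring, among 10700 genes. For Fcgr1 these were Ctsc (0.27), Pira2 (0.29) and Ifi44 (0.31), and Pira2 encodes an activating receptor that itself pairs with the Fcer1g chain. For Fcgr2b they were Smpdl3a (0.27), Tmem50b (0.30) and Ptpre (0.33). For Fcgr4 they were Bcl2a1d (0.46), Slamf9 (0.48) and Cd274 (0.49), the gene of the ligand PD-L1. Fcgrt was closest to Slc29a1 (0.24), Lgmn (0.29), a lysosomal protease gene, and Rcn3 (0.31). For the members that varied least, Fcgr3 was closest to Atraid (0.15), Vps35l (0.16) and Egfl8 (0.17), and Fcer1g to Emc7 (0.10), B2m (0.14) and Zfp472 (0.14). These distances cannot be compared between members, since the range of values over the libraries differed. It was 5.24 for Fcgr4, 4.68 for Fcgrt, 3.73 for Fcgr2b, 3.52 for Fcgr1, 2.03 for Fcgr3 and 0.97 for Fcer1g.

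Downstream of the activating receptors, 20 genes of kinases, adaptors and lipid enzymes were examined. Between macrophages and monocytes 3 of 20 were higher and 9 lower, and the list's median log2 fold change was -0.66 against 0.08 over all tested genes. The adaptor gene Blnk was higher in macrophages by 4.74 ± 0.24 (adjusted p = 4.55e-81), with means of 171 and 134 TPM in eYFP+ and eYFP- macrophages and of 1.88 and 15.2 TPM in Ly6Chi and Ly6Clo monocytes. Another adaptor gene, Lat2, was lower in macrophages (-4.76 ± 0.30, adjusted p = 1.73e-53). The kinase gene Fgr (-1.07 ± 0.16) and the lipid kinase gene Pik3cg (-1.38 ± 0.21) were lower than in all monocytes pooled. Src (3.64 ± 0.43) and the adaptor gene Lcp2 (0.66 ± 0.20) were higher in this pooled contrast. Src means were 3.599 and 2.01 TPM in eYFP+ and eYFP- macrophages, 1.39 TPM in Ly6Clo and 0.0293 TPM in Ly6Chi monocytes. With Ly6Clo monocytes as the only reference, 2 of the 20 genes were called higher in eYFP+ and 1 in eYFP- macrophages. Syk, the kinase that binds the phosphorylated activating chain, was not called (0.09 ± 0.27, adjusted p = 0.842), with group means from 52.0 to 78.9 TPM. Between the monocyte groups Blnk (-3.01 ± 0.35) and Src (-5.61 ± 0.73) were lower in Ly6Chi cells, and the other 18 were not called. Between the macrophage groups only Lat2 was called (-2.02 ± 0.44, adjusted p = 0.000656), and edgeR gave it an adjusted p of 0.0643.

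The inhibitory side was examined in 15 genes. In macrophages 4 were higher and 7 lower than in monocytes, with a median of -0.61. Higher were the adaptor gene Dok2 (2.21 ± 0.23) and the inhibitory receptor genes Lair1 (1.55 ± 0.24) and Sirpa (1.74 ± 0.34). Lair1 means were 87.3 and 65.4 TPM in eYFP+ and eYFP- macrophages, 54.0 TPM in Ly6Clo and 10.9 TPM in Ly6Chi monocytes. Against Ly6Clo monocytes alone, 2 of the 15 genes were called higher in eYFP+ and 2 in eYFP- macrophages. Lower in macrophages than in all monocytes pooled were Cblb, a ubiquitin ligase gene (-2.82 ± 0.38), Dok3 (-1.62 ± 0.36) and the phosphatase gene Ptpn11 (-1.14 ± 0.25). Ptpn6, which encodes the phosphatase SHP-1, was lower too (-0.61 ± 0.20, adjusted p = 0.00835). Inpp5d encodes SHIP-1, the phosphatase that binds the inhibitory stretch of Fcgr2b, and was not called (-0.01 ± 0.33, adjusted p = 0.990), with group means of 90.8 to 121 TPM. None of the 15 was called between the macrophage groups, by DESeq2 or by edgeR, and 0 had an unadjusted p under 0.05. In Ly6Chi monocytes the receptor gene Pirb was higher than in Ly6Clo cells (1.03 ± 0.27, adjusted p = 0.00414, but 0.0586 without Ly6Chi replicate 3 and 0.101 in a fit of the monocyte libraries alone) and Lair1 was lower (-2.30 ± 0.34). The number called there, 2, was 4 without Ly6Clo replicate 1 and 1 without Ly6Chi replicate 3.

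Genes of the cytoskeleton and integrin machinery that take up antibody-coated particles were mostly lower in macrophages. Of 15 tested genes of the 16 listed, 11 were lower in macrophages and 0 were higher, with a median of -0.98. Against Ly6Clo monocytes alone, 1 gene, Rac1, was called higher in eYFP+ and in eYFP- macrophages. Coro1a, an actin-binding protein gene, was lowest relative to monocytes (-6.01 ± 0.38), with means of 17.4 and 113 TPM in eYFP+ and eYFP- macrophages and 3122 and 2248 TPM in Ly6Chi and Ly6Clo monocytes. The myosin genes Myo1f (-3.35 ± 0.21) and Myo1g (-2.32 ± 0.32) were lower as well. Coro1a was also lower in eYFP+ than in eYFP- macrophages (-2.66 ± 0.53, adjusted p = 0.000145), for which edgeR gave an adjusted p of 0.0677. It was the 1 gene of the list called there, and 3 were called without eYFP- replicate 2. The GTPase gene Rac1 was higher in Ly6Chi than in Ly6Clo monocytes (1.42 ± 0.46, adjusted p = 0.0287), and this call was lost, at adjusted p values of 0.0766 to 0.170, without Ly6Clo replicate 3 or any of the Ly6Chi replicates. It was also lost with edgeR (0.0772), without independent filtering (0.0571) and in a fit of the monocyte libraries alone (0.0678), while 5 genes of the list were called without both libraries low in G- and C-rich transcripts.

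Relatives of the Fc receptors were mostly low. Of 14 listed, 11 were tested between macrophages and monocytes, and 3 were higher and 1 lower, in a comparison that called 35.4% of all tested genes. Fcrl1, an Fc receptor-like gene, reached 133 and 98.4 TPM in eYFP+ and eYFP- macrophages, 43.3 TPM in Ly6Clo and 4.74 TPM in Ly6Chi monocytes, and was called between macrophages and monocytes (2.90 ± 0.38) and between the monocyte groups (-3.22 ± 0.55). Fcrlb was higher in macrophages (2.05 ± 0.38). Ms4a2, a chain of the IgE receptor and a mast cell marker, was called higher in macrophages (4.67 ± 1.22), with 15.3 TPM in eYFP- and 0.897 TPM in eYFP+ macrophages, the order of the mast cell and basophil list. The IgE receptor gene Fcer1a was at 7.63 TPM in eYFP- macrophages and 1.45 TPM or less elsewhere, and was not called in these 3 contrasts. Fcrls was called higher in eYFP+ than in eYFP- macrophages (3.46 ± 0.87, adjusted p = 0.00673), with means of 6.38 and 0.580 TPM, but the groups overlapped, edgeR gave 0.250, and the adjusted p was 0.287 without eYFP+ replicate 2 and 0.0855 without eYFP- replicate 3. In Ly6Chi monocytes 5 of 10 tested relatives were lower than in Ly6Clo cells, among them Fcrls (-4.71 ± 0.88), Fcrl5 (-6.14 ± 1.05) and Fcrla (-4.49 ± 0.79), and 0 were higher. The number called was 4 by edgeR and 2 to 6 over all alternatives, and Fcrla had an adjusted p of 0.0509 with edgeR and a replicate block.

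Other receptors use Fcer1g or its relative Tyrobp as their signalling chain. Of 16 tested, 4 were higher and 10 lower in macrophages than in monocytes (median -1.62). Clec4n, the gene of Dectin-2 (2.42 ± 0.37), Pira2 (2.02 ± 0.18) and the lipid receptor gene Trem2 (1.20 ± 0.22) were higher. Cd300lb (-4.69 ± 0.25), Sirpb1a (-4.99 ± 0.30) and Trem1 (-5.41 ± 0.41), a receptor gene that amplifies inflammation, were lower. Tyrobp was lower too (-0.60 ± 0.24, adjusted p = 0.0350), with group means from 3876 to 7353 TPM. Between the monocyte groups 1 was higher and 6 lower in Ly6Chi cells, and the 7 calls were 5 with edgeR and 4 to 8 over all alternatives. Pira2 was higher (2.28 ± 0.25), the direction of Fcgr1, while Cd300ld (-3.62 ± 0.39), Klrd1 (-4.89 ± 0.57) and Cd300c2 (-1.66 ± 0.25) were lower. Between the macrophage groups 2 were lower in eYFP+ cells, among them Klrd1 (-2.60 ± 0.58, adjusted p = 0.00123), which edgeR did not call (adjusted p = 0.105). The lower Lat2, Coro1a and Klrd1 in eYFP+ cells stood beside lower monocyte, neutrophil, dendritic cell, erythroid and mast cell genes, whose part was not tested, and Klrd1 is itself on the dendritic cell list. The number called among these receptors was 0 with edgeR, 5 without both libraries low in G- and C-rich transcripts, 4 without Ly6Clo replicate 2, and 1 without eYFP- replicate 2, Ly6Clo replicate 3, eYFP+ replicate 2 or any of the Ly6Chi replicates.

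For the neonatal Fc receptor, 14 genes of its partner and of endosomal recycling were examined. In macrophages 3 were higher and 2 lower than in monocytes, in a comparison that called 35.4% of all tested genes. The median was 0.08, beside 0.08 over all tested genes and the 7.40-fold difference of Fcgrt. The 5 calls were 4 with edgeR and 3 to 9 over all alternatives, with 9 without both libraries low in G- and C-rich transcripts. The third of the higher genes, Vps35 (0.38 ± 0.16), was called in 10 of 24 alternatives and not with edgeR (adjusted p = 0.0569) or without independent filtering (0.0806). Its call was also lost, at adjusted p values of 0.0609 to 0.125, without any single library other than eYFP+ replicates 1 and 3. The GTPase gene Rab4a (2.01 ± 0.49) and Ehd1 (1.82 ± 0.51) were higher, and Rab11fip1 (-4.43 ± 0.36) and Rab5a (-0.91 ± 0.20) were lower. The Ehd1 call was lost with edgeR and a replicate block (adjusted p = 0.0561) and with limma over all genes with any count (0.0698). Against Ly6Clo monocytes alone, 1 of 13 tested genes of the list was called higher in eYFP+ and 0 of 14 in eYFP- macrophages. None was called between the macrophage groups, by DESeq2 or by edgeR, and 1 had an unadjusted p under 0.05. Without Ly6Clo replicate 1, Ly6Clo replicate 2 or eYFP+ replicate 2, 1 was called. B2m was the 1 gene called between the monocyte groups, lower in Ly6Chi cells (-0.75 ± 0.23, adjusted p = 0.0200). That call was lost without eYFP- replicate 3, Ly6Clo replicate 1, Ly6Clo replicate 3 or any of the Ly6Chi replicates, with adjusted p from 0.0521 to 0.130. It was also lost with edgeR (0.0774), which called 0 genes of the list there, and in a fit of the monocyte libraries alone (0.236).

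Among the antibody genes, Ighm made up most of the summed TPM in each group. It encodes the heavy chain of IgM, which is not a ligand of the IgG receptors or of the neonatal Fc receptor. Its level was lower in macrophages than in monocytes (-4.95 ± 0.27), with means of 15.1 and 38.7 TPM in eYFP+ and eYFP- macrophages and of 541 and 879 TPM in Ly6Chi and Ly6Clo monocytes. The list of 10 B and plasma cell genes summed to 801 to 1173 TPM in macrophages and to 399 to 626 TPM in monocytes, the reverse order. The part of these cells in the level of Ighm was not tested. Of 12 antibody genes, 7 were tested between macrophages and monocytes, and 2 were higher and 2 lower. These 4 calls were 3 with edgeR and 2 to 6 over all alternatives.

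**Figure D4:**
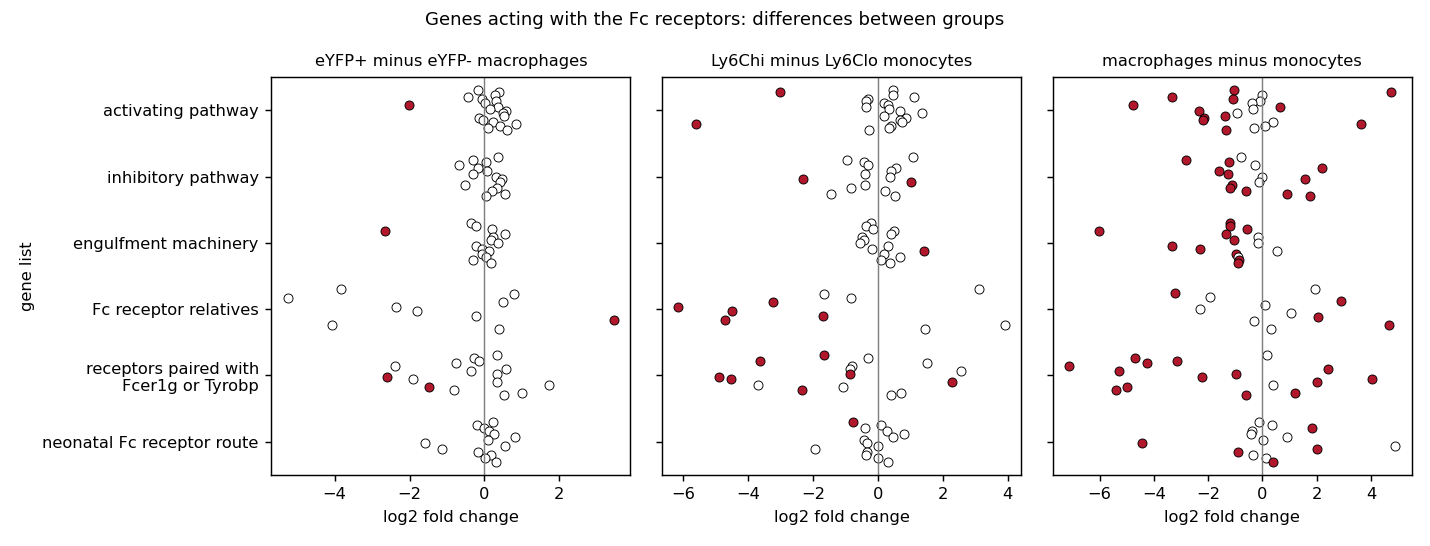
Log2 fold change of each tested gene of 6 lists in 3 comparisons; filled points were called at an adjusted p under 0.05 (DESeq2, n = 3 libraries per group). Between macrophages and monocytes 11 of 15 genes of the engulfment machinery lie below 0 and are filled, and between the macrophage groups few points are filled.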

How the data were processed

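RNA was reverse transcribed and amplified as full-length cDNA, without molecular identifiers. Per the study's methods, the authors aligned reads with segemehl to GRCm39 and deposited counts per gene from featureCounts, using unambiguous pairs only, with no mention of strand. Also deposited by the authors were TPM, in which counts are scaled by gene length and library, and variance-stabilised values, which approach log2 counts for well expressed genes. The submitters' processing notes name bcl2fastq 2.20.0.422.

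The deposited counts were tested here with DESeq2 1.42.0 in R 4.3.3 (1 fit over 12 libraries, group as factor, median-of-ratios size factors, Wald tests, Benjamini-Hochberg adjustment over all genes, independent filtering at 0.05). Fold changes are unshrunken, with standard errors. edgeR 4.0.16 and limma 3.58.1 served as alternatives, with other scalings, filters, a replicate block and libraries left out. The fits were tested on simulated data. Symbols came from GENCODE M21, which covers another build than that of the files, so promoter coordinates are those of GRCm38.p6. For each gene list, up to 3 genes called higher and 3 called lower, ranked by adjusted p and with a mean of at least 50 normalized counts, could be named, plus Tyrobp, Syk, Inpp5d, Ptpn6, B2m, Fcer1a and Fcrls. The 6 members and the lists were chosen with earlier results of these data known. Depth was 26390927 to 48618187 counts per library, so counting error is small for the members, and replicate spread sets the precision. All columns could be matched to a sample.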

Additional observations from a re-analysis of the deposited data

How the results depend on the processing

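The number of Fc receptor genes called was 0 between the macrophage groups, 3 to 4 between the monocyte groups, 3 to 4 between macrophages and monocytes and 16 to 18 in the 24 pairs, under the alternative settings. No called member lost its call or its direction under these settings, which were edgeR in place of DESeq2, size factors from TMM or from total counts, a filter on low counts (10 in at least 3 libraries), DESeq2 without its independent filtering or without its Cook's cutoff, a replicate block in either tool, fits on the libraries compared (the pooled contrast uses all 12, so it has no such value), limma on TPM, and each library left out. Of 1044 values of members under alternatives, 1001 kept direction and side of the threshold, 14 were called in addition and 29 changed sign, none of which was called in either fit.

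What same-numbered samples share is not stated, and they were not treated as pairs, since not every correlation was over 0.1. Correlations of their deviations from group means over 2000 genes were 0.254, 0.0751 and 0.0811 for the macrophage groups and 0.0407, -0.0048 and 0.0464 for the monocyte groups. With the replicate block the calls were 0, 3, 3 and 16, by DESeq2 and by edgeR, and Fcgr4 between macrophages and monocytes changed from -0.02 to 0.0192 (DESeq2) and 0.00416 (edgeR), and Fcer1g from 0.03 to -0.0115 (edgeR).

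Changes of sign, all in differences that were not called, came between the macrophage groups without both libraries low in G- and C-rich transcripts (Fcgr2b -0.16, Fcgr3 -0.0172, Fcgr4 -0.0611, Fcer1g -0.0141) and with total-count scaling (Fcgr4 -0.00211). Between the monocyte groups Fcgr3 was 0.11 without both those libraries. Between macrophages and monocytes Fcgr4 was 0.109 with limma on log2(TPM + 1), also over all genes with any count, and 0.116 with limma on log2(TPM + 0.1), and Fcer1g was -0.0194 with total-count scaling and -0.0906 without both libraries. With single libraries left out, the eYFP+ minus eYFP- difference ran from -0.151 to 0.612 for Fcgr2b, -0.00746 to 0.779 for Fcgr3, -0.053 to 0.215 for Fcgr4 and -0.00508 to 0.436 for Fcer1g, lowest in each case without eYFP+ replicate 1. Fcgr3 ran from -0.429 to 0.112 between the monocyte groups, turning positive without Ly6Clo replicate 2, and from -0.0142 to 0.498 in eYFP- macrophages minus Ly6Clo monocytes. Between macrophages and monocytes Fcgr4 ran from -0.167 to 0.124 and Fcer1g from -0.0868 to 0.105. The cause was not tested.

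edgeR called fewer genes in all than DESeq2 between the macrophage groups (64 against 439) and between the monocyte groups (829 against 1860); 1424 genes had an unadjusted p under 0.05 in edgeR in the first. Among the named genes of the lists, 85 of 1195 values lost the call. For the members depth was not limiting, as the lowest count of a member in a library was 970.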
